A study of Mus musculus with 10 samples.

Results

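The structural genes of the microvillus and brush border were followed in mouse small intestine organoids treated with pegtarazimod. The set held 10 genes, chosen by platform gene symbol: Vil1, Espn and Eps8 of the actin core, the myosins Myo1a and Myo7b, the adhesion complex genes Cdhr2, Cdhr5, Ush1c and Anks4b, and the membrane linker gene Ezr. All 10 were measured, each by 1 probe set, among 19505 genes with a symbol on the arrays. Expression was measured on 10 single-colour arrays, 5 with RNA from organoids that received 20 ng/ml recombinant mouse TNF together with pegtarazimod (a peptide linked to PEG) at 5 mg/ml, and 5 with RNA from organoids that received the same TNF with 2.625 mM PEG as vehicle. Both treatments lasted 48 h. The organoids, which are cultures of intestinal epithelium that form crypt-like and villus-like domains, came from BALB/c mice, and no source used here gives the ages of the animals. The replicates are called biological in the series design, which does not say what differed between them, so the spread may be partly technical. Every culture received TNF, so each difference is between pegtarazimod and PEG vehicle in the presence of TNF. No source used here says how much PEG the pegtarazimod cultures received.

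The brush border is the carpet of microvilli on the apical face of absorptive enterocytes. Each microvillus holds a bundle of parallel actin filaments, cross-linked by villin, espin, fimbrin and EPS8. The bundle is tied to the membrane along its sides by myosin 1a and by ezrin. At the tips, the protocadherins CDHR2 and CDHR5 join neighbouring microvilli, and their tails are held by a complex of USH1C, ANKS4B and the motor myosin 7b. In the intestine the brush border is assembled as cells leave the crypt and mature on the villus.

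With pegtarazimod, the membrane-tethering motor gene Myo1a and both tip-link protocadherin genes, Cdhr2 and Cdhr5, rose. Myo1a was 1.96-fold, Cdhr2 1.68-fold and Cdhr5 1.37-fold higher. The other 7 genes, which include the actin bundlers Vil1 and Espn and the linker gene Ezr, did not pass the test. Of the 10 genes 3 rose and 0 fell by limma with Benjamini-Hochberg adjustment over all 19505 genes at a threshold of 0.05, and 5 had an unadjusted limma p below 0.05, of which Myo7b was the only 1 with a lower value, against 19.0% of all genes at that unadjusted p. Over all genes 4.89% passed, 2.50% as rises and 2.39% as falls. Pegtarazimod and vehicle arrays had no overlap for 4 of the 10 genes, against 6.71% of all genes. Myo1a, Cdhr2 and Cdhr5 were those lying higher (3.35% of all genes) and Myo7b the one lying lower (3.36%). The median difference over the 10 genes was 0.23 on the log2 scale, pegtarazimod minus vehicle, with 7 values above 0 and 3 below, against a median of 0.0029 over all genes. In these bulk samples a larger share of cells of a type and more RNA per cell cannot be told apart.

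**Figure D1:**
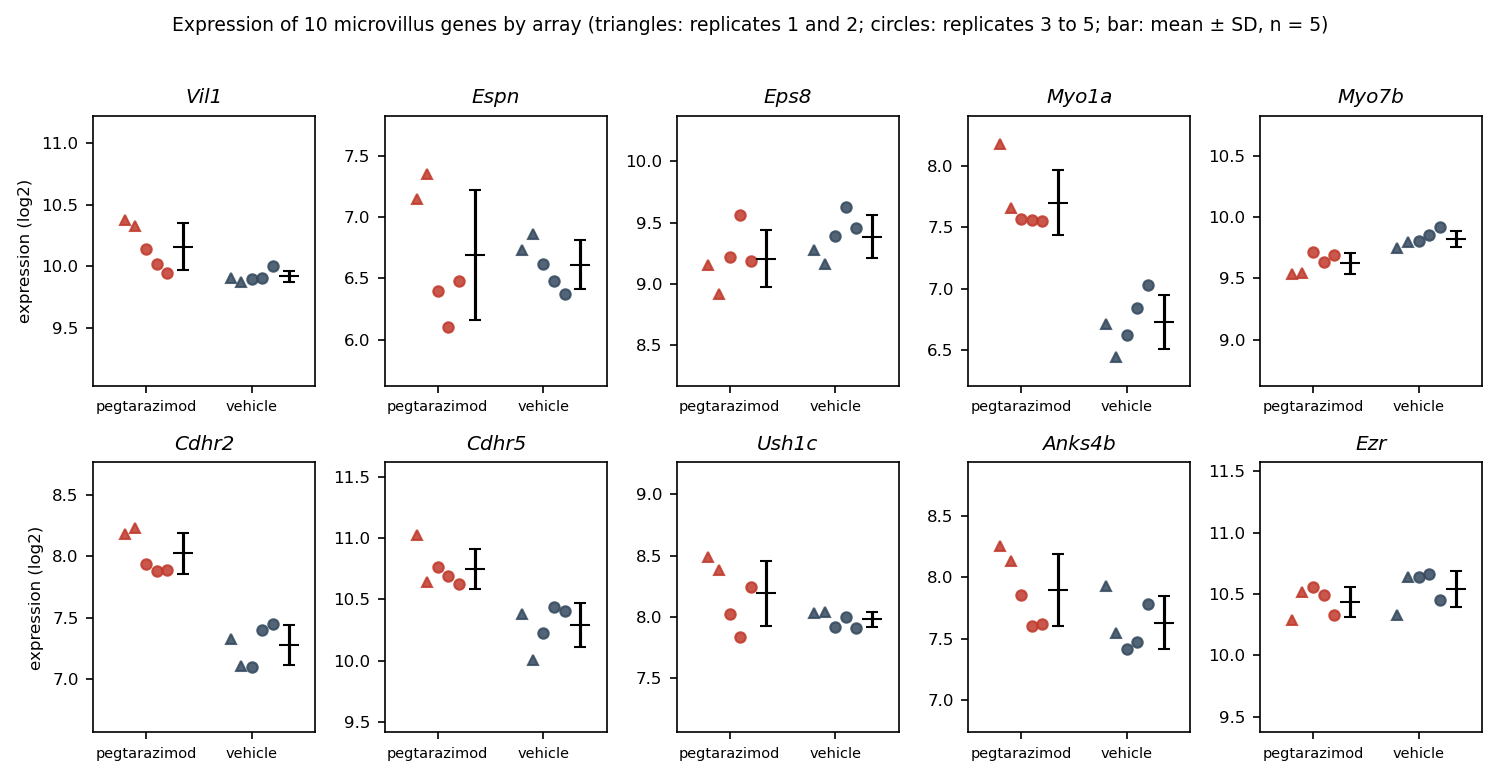
Expression of the 10 microvillus genes on each array (vertical axes, log2, 1 panel per gene and equal spans) with pegtarazimod on the left and vehicle on the right. Triangles are replicates 1 and 2, circles replicates 3 to 5, and bars the mean ± SD (n = 5). The groups lie apart for Myo1a, Cdhr2 and Cdhr5, and by a smaller step downwards for Myo7b.

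The median log2 value of an array was 5.60 to 5.66, and each of the 10 genes lay above the median of every array on that array. The small number of arrays sets the precision. In both groups the first principal component separated replicates 1 and 2 from replicates 3 to 5. It was taken over the deviations from the group means and held 33.4% of their variance. The labels name no batch. Differences within each subset, from a fit that pooled the spread over all 10 arrays, are therefore given beside the results. Because the split was seen in these same arrays, calls gained by blocking on the subsets are no independent evidence of a change. Epithelial markers were bright in both groups (Cdh1 averaged 12.17 with pegtarazimod and 12.21 with vehicle). The leukocyte marker Ptprc averaged 4.09 with pegtarazimod and 4.08 with vehicle. Mesenchymal markers differed in level. Dcn averaged 3.422 with pegtarazimod and 3.399 with vehicle, whereas Col1a1 averaged 6.48 and 6.34, in that order, and lay above the median of every array.

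Myo1a encodes the motor that bridges the actin bundle to the microvillar membrane. It had values of 8.17, 7.65, 7.57, 7.56 and 7.55 in pegtarazimod replicates 1 to 5, against 6.71, 6.44, 6.63, 6.84 and 7.03 in vehicle replicates 1 to 5 (log2). Every pegtarazimod array lay above every vehicle array, and pegtarazimod 1 stood highest. The means were 7.70 ± 0.27 with pegtarazimod and 6.73 ± 0.22 with vehicle (SD, n = 5 each), a difference of 0.97 ± 0.14 (SE; limma adjusted p = 0.00173). The difference was 1.34 in replicates 1 and 2 (adjusted p = 0.000953) and 0.73 in replicates 3 to 5 (adjusted p = 0.0159).

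Myo7b encodes the motor of the tip-link complex, and its values went the other way by a small amount. They were 9.53, 9.54, 9.72, 9.63 and 9.69 in pegtarazimod replicates 1 to 5, against 9.75, 9.80, 9.80, 9.85 and 9.92 in vehicle replicates 1 to 5. The groups did not overlap, and the spread within each was narrow. The means were 9.62 ± 0.085 with pegtarazimod and 9.82 ± 0.065 with vehicle (SD, n = 5 each), and the difference of -0.20 ± 0.081 (SE) did not pass over all genes (limma adjusted p = 0.192, unadjusted 0.0267). It was -0.24 in replicates 1 and 2 and -0.18 in replicates 3 to 5. Within an array, Myo1a minus Myo7b ranged from -2.15 to -1.36 with pegtarazimod and from -3.35 to -2.89 with vehicle, without overlap. That separation follows from the single genes, which lay apart in opposite directions, and adds nothing to them. This pair was chosen after its values were seen, and no test is given for it.

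Promoter sequences are shown for the 3 genes that rose and for Vil1, the villin gene, which did not pass, so that genes of the same structure can be set side by side. RefSeq promoters on GRCm38.p6 were found for 8 of the 10 genes, with 3 for Espn and 1 for each of the others. Each sequence below is the 250 bases before the start site, 5' to 3' in the direction of the gene, in lower case with matches to the searched motifs in capitals.
Myo1a (chr10:127705006-127705255, plus strand): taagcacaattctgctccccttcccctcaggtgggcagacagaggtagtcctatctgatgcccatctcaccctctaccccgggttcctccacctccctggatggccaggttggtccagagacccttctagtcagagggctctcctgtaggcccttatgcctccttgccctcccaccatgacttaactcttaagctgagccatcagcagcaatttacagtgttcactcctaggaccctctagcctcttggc
Cdhr2 (chr13:54701213-54701462, plus strand): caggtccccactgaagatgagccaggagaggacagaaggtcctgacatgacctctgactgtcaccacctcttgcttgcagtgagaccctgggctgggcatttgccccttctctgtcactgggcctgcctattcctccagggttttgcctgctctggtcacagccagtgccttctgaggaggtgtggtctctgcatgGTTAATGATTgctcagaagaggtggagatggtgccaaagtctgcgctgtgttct
Cdhr5 (chr7:141276787-141277036, minus strand): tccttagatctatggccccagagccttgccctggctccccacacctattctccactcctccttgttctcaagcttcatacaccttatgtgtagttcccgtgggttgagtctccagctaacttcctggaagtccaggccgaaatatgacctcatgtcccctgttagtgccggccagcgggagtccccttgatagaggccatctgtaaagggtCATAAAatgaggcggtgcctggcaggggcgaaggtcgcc
Vil1 (chr1:74409134-74409383, plus strand): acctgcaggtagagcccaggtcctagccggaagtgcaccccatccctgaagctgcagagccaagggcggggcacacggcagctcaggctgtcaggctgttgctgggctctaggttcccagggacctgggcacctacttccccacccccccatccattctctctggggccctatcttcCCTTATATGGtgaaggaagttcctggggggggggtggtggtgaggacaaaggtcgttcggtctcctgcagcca
Motifs of transcription factors known from intestinal epithelium were searched on both strands. The motif of the enterocyte factors HNF4A and HNF4G was written CAAAGNNCA, where N is any base. The motif of the homeobox factors CDX1 and CDX2 was written TTTATG, and that of the GATA zinc finger factors AGATAAG. The motif of the homeobox factor HNF1 was written GTTAATNATT, and the CArG box bound by SRF was searched as well. The capitals mark an HNF1 match in Cdhr2, 54 to 45 bases before the start, a CDX match on the opposite strand in Cdhr5, 39 to 34 bases before it, and a CArG box in Vil1, 73 to 64 bases before it. No searched motif lay in the Myo1a window. Among the other promoters, Anks4b held an HNF4 match and 1 of the 3 Espn promoters a CDX match, and no matches of different motifs overlapped. Of 32851 RefSeq promoters of the same length, 0.371% held the HNF1 motif, 10.8% the CDX motif, 1.47% a CArG box, 5.49% the HNF4 motif and 2.74% the GATA motif. No motif was shared by the 3 genes that rose, and binding was not measured.

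The protocadherin genes of the tip link were both higher. Cdhr2 had values of 8.19, 8.23, 7.94, 7.88 and 7.89 in pegtarazimod replicates 1 to 5, against 7.33, 7.11, 7.10, 7.40 and 7.45 in vehicle replicates 1 to 5. The groups were well separated, with replicates 1 and 2 the highest of the pegtarazimod arrays. The means were 8.03 ± 0.17 with pegtarazimod and 7.28 ± 0.16 with vehicle (SD, n = 5 each), a difference of 0.75 ± 0.11 (SE; limma adjusted p = 0.00181). The difference was 0.99 in replicates 1 and 2 (adjusted p = 0.00163) and 0.59 in replicates 3 to 5 (adjusted p = 0.0158).

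Cdhr5, the partner protocadherin, had values of 11.02, 10.64, 10.77, 10.69 and 10.62 in pegtarazimod replicates 1 to 5, against 10.38, 10.01, 10.22, 10.44 and 10.41 in vehicle replicates 1 to 5. The groups did not overlap, but the lowest pegtarazimod array lay close above the highest vehicle array. The means were 10.75 ± 0.16 with pegtarazimod and 10.29 ± 0.18 with vehicle (SD, n = 5 each), a difference of 0.46 ± 0.11 (SE; limma adjusted p = 0.0285). The call of Cdhr5 was lost without pegtarazimod 1 (adjusted p = 0.0671), vehicle 2 (0.0633) or vehicle 3 (0.0825), with quantile normalisation over all genes (0.0532) and within replicates 3 to 5 (0.34, adjusted p = 0.241), whereas it held within replicates 1 and 2 (0.64, adjusted p = 0.0386). Within an array, Cdhr2 minus Cdhr5 ranged from -2.84 to -2.41 with pegtarazimod and from -3.12 to -2.90 with vehicle, without overlap, a mean difference of 0.29. This pair was also chosen after its values were seen and was not tested. Other pairs were computed and likewise not tested. Cdhr2 minus Ush1c ranged from -0.36 to 0.049 with pegtarazimod and from -0.94 to -0.46 with vehicle, without overlap. The brush border gene Baiap2l2 minus Eps8 overlapped, from -0.34 to 0.46 with pegtarazimod and from -0.88 to -0.21 with vehicle.

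The cytoplasmic partners of the tip link had smaller differences that did not pass. Ush1c encodes harmonin, a PDZ scaffold, and ranged from 7.83 to 8.48 with pegtarazimod (median 8.25) and from 7.91 to 8.04 with vehicle (median 7.998). It differed by 0.21 ± 0.12 (SE; limma adjusted p = 0.364, 95% interval -0.039 to 0.46). Pegtarazimod 3 lay within the range of the vehicle arrays, pegtarazimod 4 below it, and pegtarazimod 1, 2 and 5 above it. Anks4b encodes the ankyrin repeat protein that binds USH1C and myosin 7b, and ranged from 7.60 to 8.26 with pegtarazimod (median 7.86) and from 7.41 to 7.93 with vehicle (median 7.55). It differed by 0.27 ± 0.14 (SE; limma adjusted p = 0.349, 95% interval -0.040 to 0.57). All 4 adhesion complex genes other than Myo7b had values above 0 in their differences, 2 of them past the test.

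None of the 3 actin core genes passed the limma test over all genes, and 1 of them, Vil1, had an unadjusted p below 0.05. Vil1 encodes villin, which bundles and severs actin, and had values of 10.38, 10.32, 10.14, 10.01 and 9.94 in pegtarazimod replicates 1 to 5, against 9.90, 9.87, 9.90, 9.91 and 9.998 in vehicle replicates 1 to 5. The vehicle arrays were nearly level, while the pegtarazimod arrays spread upwards from them. The means were 10.16 ± 0.19 with pegtarazimod and 9.92 ± 0.048 with vehicle (SD, n = 5 each), a difference of 0.24 ± 0.098 (SE; limma adjusted p = 0.191). Vil1 passed within replicates 1 and 2 (0.46, adjusted p = 0.0494) but not within replicates 3 to 5 (0.097, adjusted p = 0.736).

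Espn encodes espin, an actin bundler that lengthens microvilli. It had values of 7.14, 7.35, 6.39, 6.10 and 6.47 in pegtarazimod replicates 1 to 5, against 6.73, 6.86, 6.62, 6.48 and 6.37 in vehicle replicates 1 to 5. The pegtarazimod arrays of replicates 1 and 2 lay above all vehicle arrays, and 1 of the other pegtarazimod arrays lay below all of them. The difference was 0.081 ± 0.20 (SE; limma adjusted p = 0.885), and it was 0.45 in replicates 1 and 2 and -0.16 in replicates 3 to 5, neither of which passed (adjusted p = 0.129 and 0.606). Eps8 encodes a protein that caps and bundles actin at the microvillar tip. It ranged from 8.91 to 9.56 with pegtarazimod (median 9.18) and from 9.16 to 9.63 with vehicle (median 9.39), with a difference of -0.18 ± 0.12 (SE; limma adjusted p = 0.490).

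Ezr encodes ezrin, the linker between actin and the apical membrane. It ranged from 10.28 to 10.56 with pegtarazimod (median 10.49) and from 10.33 to 10.66 with vehicle (median 10.63), and the groups overlapped over most of their range. The difference of -0.11 ± 0.097 (SE) did not pass (limma adjusted p = 0.635), and its 95% interval ran from -0.31 to 0.10.

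The 10 genes also varied by array within the pegtarazimod group. Pegtarazimod 1 held the highest value of all 10 arrays for 5 of the genes and pegtarazimod 2 for a further 2, while the highest values of Eps8, Myo7b and Ezr were in vehicle arrays. The difference was greater (more positive) in replicates 1 and 2 than in replicates 3 to 5 for 8 of the 10 genes, all but Eps8 and Myo7b, against 48.6% of all genes. The median difference over the 10 genes was 0.45 in replicates 1 and 2 and 0.094 in replicates 3 to 5. Within replicates 1 and 2, 4 of the 10 genes rose (Vil1, Myo1a, Cdhr2 and Cdhr5), against 2.93% of all genes, and within replicates 3 to 5, 2 rose (Myo1a and Cdhr2), against 1.84%. The difference between the subsets was itself tested, and none of the 10 passed by limma (adjusted p between 0.443 and 0.994), with 5 genes of all 19505 passing (0.0256%). Among the 10, the largest subset differences were those of Espn (0.61, 95% interval 0.17 to 1.05, limma adjusted p = 0.443) and Myo1a (0.61, 95% interval 0.099 to 1.12, limma adjusted p = 0.550).

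**Figure D2:**
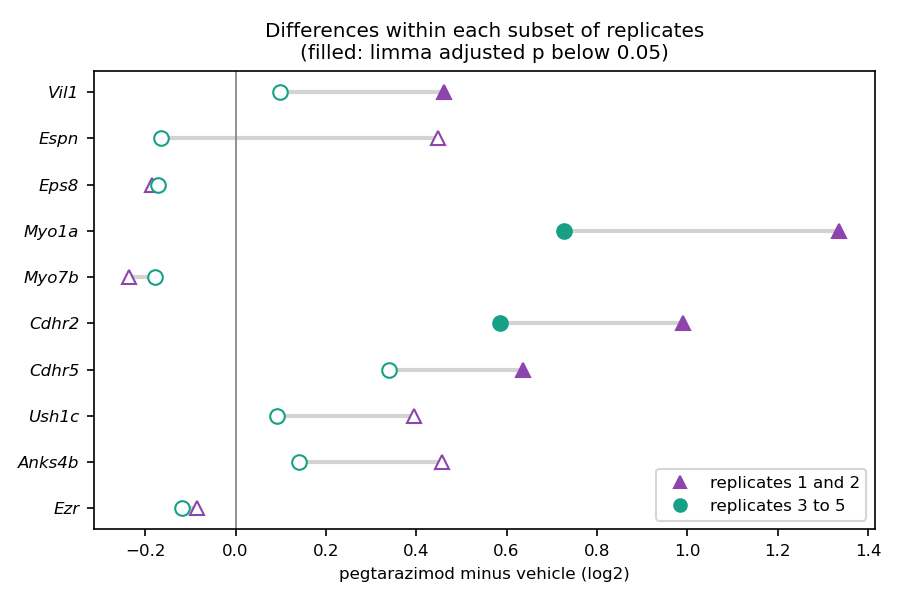
Differences of the 10 microvillus genes (horizontal axis, log2, pegtarazimod minus vehicle) within replicates 1 and 2 (triangles) and within replicates 3 to 5 (circles), with filled symbols past the limma threshold. Myo1a and Cdhr2 are filled in both subsets, Vil1 and Cdhr5 only in replicates 1 and 2, and Espn lies at 0.45 and -0.16.

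Other genes of the brush border were looked up from a list of 39 arranged by role, of which 38 were measured. Among them, 3 (Fscn1, Eps8l1 and Rdx) lay under the lower quartile of every array, so little can be said of these. Of the 38, 1 rose and 2 fell by limma, against 2.50% and 2.39% of all genes. An unadjusted limma p below 0.05 was found for 11 (19.0% of all genes), and the median difference was 0.066. The count of 3 was 0 without pegtarazimod 2, vehicle 3 or vehicle 4 (7, 10 and 7 with an unadjusted limma p below 0.05) and 1 without vehicle 5. Baiap2l2, which encodes a protein of the I-BAR family that binds membrane and actin, rose by 0.46 ± 0.10 (SE; limma adjusted p = 0.0194). Its values were 9.50, 9.38, 9.16, 9.22 and 9.36 in pegtarazimod replicates 1 to 5, against 9.07, 8.67, 8.88, 8.75 and 8.94 in vehicle replicates 1 to 5, and the groups did not overlap. Replicates 1 and 2 gave a difference of 0.57 (adjusted p = 0.0471) and replicates 3 to 5 one of 0.39 (adjusted p = 0.132). Baiap2l1, the gene of the related I-BAR protein of microvillar tips, differed by 0.26 ± 0.085 (SE) and did not pass (limma adjusted p = 0.101), with every pegtarazimod array above every vehicle array. Baiap2l2 lost its call without pegtarazimod 2 (adjusted p = 0.0510), vehicle 3 (0.0510) or vehicle 4 (0.0590).

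The plastins are actin bundlers, and 1 of their 3 genes passed. Pls3, which encodes the widely expressed plastin 3, was 2.60-fold lower (-1.38 ± 0.32, SE; limma adjusted p = 0.0249). Its values were 5.26, 6.21, 6.79, 7.30 and 6.72 in pegtarazimod replicates 1 to 5, against 6.999, 7.76, 8.14, 8.11 and 8.15 in vehicle replicates 1 to 5, so pegtarazimod 4 lay above vehicle 1. The difference was -1.65 in replicates 1 and 2 and -1.20 in replicates 3 to 5, and both passed (adjusted p = 0.00477 and 0.0136). The call was lost without pegtarazimod 2 or vehicle 3, 4 or 5 (adjusted p up to 0.0738 without vehicle 3) and with an intensity trend and robust priors (0.0835). Pls1, the plastin of the intestinal brush border, differed by 0.096 ± 0.11 (SE; limma adjusted p = 0.706), and Lcp1, known as the plastin of blood cells, by -0.17 ± 0.086 (SE; limma adjusted p = 0.330). On these arrays Lcp1 was bright, averaging 10.05 with pegtarazimod and 10.21 with vehicle, near Pls1 (10.26 and 10.16). Both genes lay above the median of every array. Lcp1, and Baiap2l1 above, were named after their values were seen, and differences between the plastin genes were not tested.

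Slk encodes a kinase that phosphorylates ezrin and its relatives. It ranged from 9.36 to 9.76 with pegtarazimod (median 9.54) and from 9.87 to 9.98 with vehicle (median 9.93), and the groups did not overlap. It fell by 0.36 ± 0.090 (SE) on the log2 scale (limma adjusted p = 0.0378), but 8 of the 10 fits without 1 array did not call it, all but those without pegtarazimod 3 or 4 (adjusted p up to 0.0878 without pegtarazimod 2), with centring on array medians (0.0550) and within either subset (-0.47, adjusted p = 0.0569, and -0.28, adjusted p = 0.227). The related kinase gene Stk10 differed by -0.37 (limma adjusted p = 0.248).

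In the motor group none of 6 other genes passed by limma, and 3 had an unadjusted p below 0.05, against 19.0% of all genes. Of these, Myo1c, a broadly expressed relative of Myo1a, had a difference of -0.42 (limma adjusted p = 0.103). Blocking on the subsets brought Myo1c past the threshold (adjusted p = 0.0137), as did leaving out pegtarazimod 4 (-0.51, adjusted p = 0.0415). Myo1d, another class I myosin of the brush border, and Calml4, the light chain of myosin 7b, differed by 0.30 and 0.28 (limma adjusted p = 0.0718 and 0.166), values that were singled out after they were seen. The actin nucleator gene Cobl differed by 0.38 over the 10 arrays (limma adjusted p = 0.307) and passed within replicates 1 and 2 (0.76, adjusted p = 0.0101) but not within replicates 3 to 5 (0.13, adjusted p = 0.690). None of the 5 measured terminal web genes and none of 7 genes of apical membrane delivery passed by limma. An unadjusted p below 0.05 was found for 2 and 1 of them, in that order, against 19.0% of all genes.

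**Figure D3:**
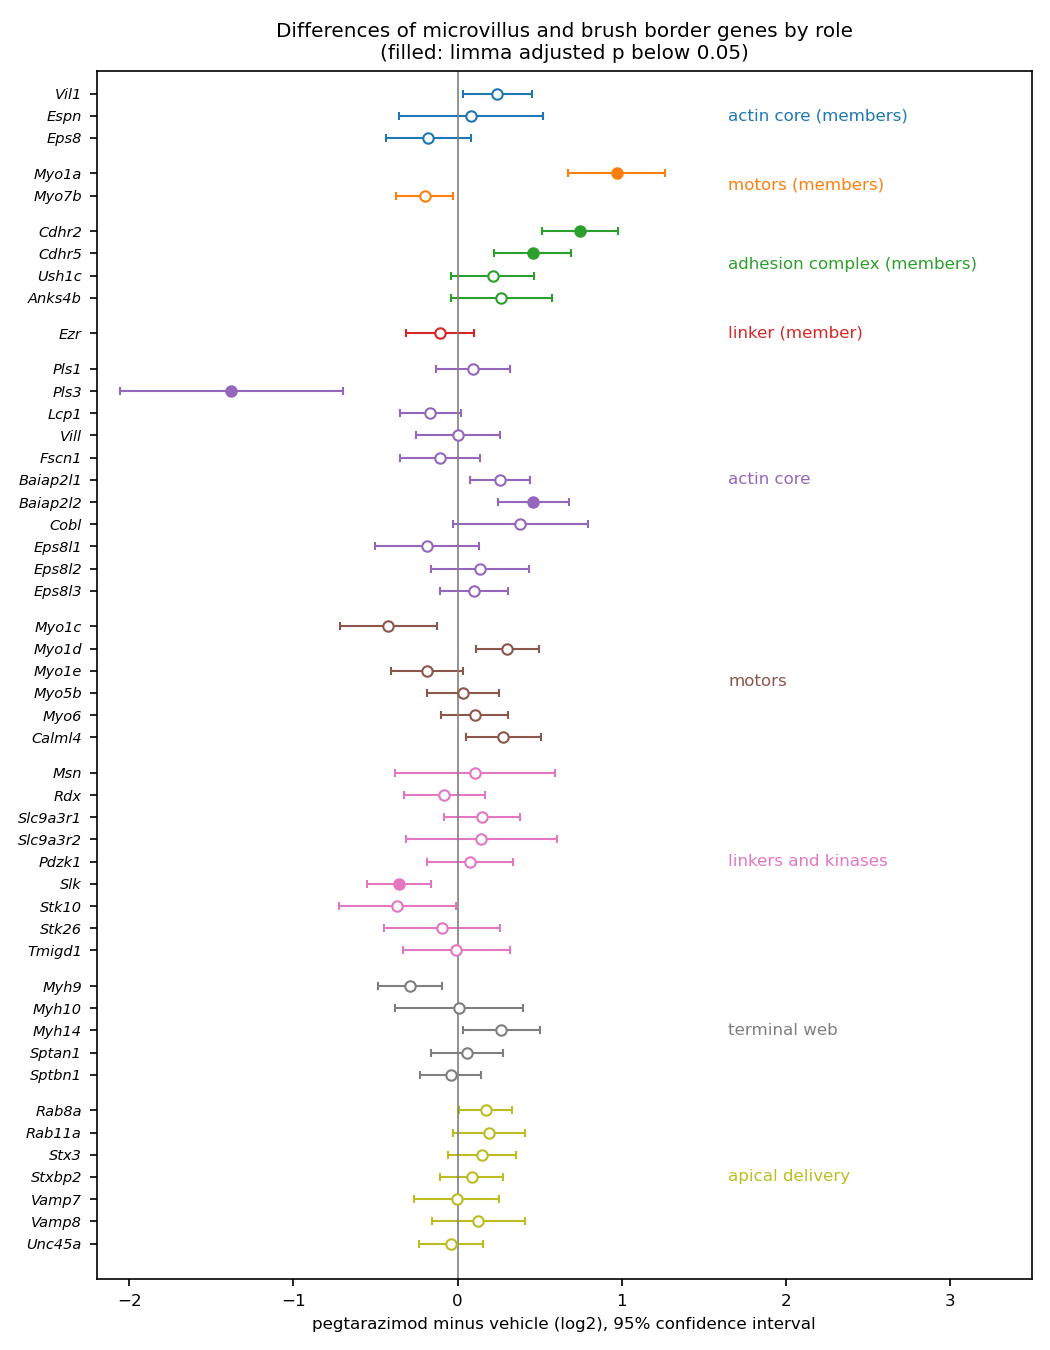
Differences (horizontal axis, log2, pegtarazimod minus vehicle) with 95% confidence intervals for the 10 microvillus genes and 38 other brush border genes, grouped by role, with filled points past the limma threshold. Myo1a, Cdhr2, Cdhr5 and Baiap2l2 are filled to the right of 0, and Pls3 and Slk to the left.

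Transcripts of enzymes and transporters that reside in the brush border membrane were also measured. Of 10 genes of digestive enzymes and transporters 2 rose and 0 fell, against 2.50% and 2.39% of all genes. Of the 10, 6 had an unadjusted limma p below 0.05, against 19.0% of all genes, and the median difference was 0.37. In replicates 1 and 2 alone 6 of the 10 rose, against 2.93% of all genes. In replicates 3 to 5 alone 1 did, against 1.84%. The peptide transporter gene Slc15a1 was 2.41-fold higher (limma adjusted p = 0.00412). The aminopeptidase gene Anpep was 1.28-fold higher (limma adjusted p = 0.0292), and 6 of the 10 fits without 1 array did not call it (adjusted p up to 0.0794 without vehicle 4) and within replicates 3 to 5 (0.27, adjusted p = 0.237).

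Transcription factors known to act on brush border genes did not pass by limma (0 of 7, with 2 at an unadjusted p below 0.05, against 19.0% of all genes). Hnf4g, which encodes an HNF4 factor of the enterocyte, was singled out after its values were seen. Its values were 10.86, 10.67, 10.19, 10.004 and 10.04 in pegtarazimod replicates 1 to 5, against 10.23, 9.92, 9.35, 9.35 and 9.57 in vehicle replicates 1 to 5, so the groups overlapped only where vehicle 1 exceeded pegtarazimod 3, 4 and 5. The difference was 0.67 ± 0.20 (SE; limma adjusted p = 0.0724), and it was 0.69 within replicates 1 and 2 and 0.65 within replicates 3 to 5, both past the threshold (adjusted p = 0.0158 and 0.0103), as it was over all arrays when blocked on the subsets (adjusted p = 0.000403), without the dimmest 50% of genes (0.0485), without pegtarazimod 4 (0.0473) and without vehicle 1 (0.0296). Hnf4g was not called under 14 of the 21 alternatives, and its limma adjusted p reached 0.185 among the fits without 1 array. No rise of Hnf4g is therefore claimed. Hnf4a, the related factor gene, differed by 0.15 (limma adjusted p = 0.447), and Srf, which encodes the factor that binds CArG boxes, by -0.30 (0.177).

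Hair cells of the inner ear carry actin-filled projections built with a parallel set of proteins. Of 6 genes listed for them 4 were measured (Myo7a, Ush1g, Cdh23 and Whrn), and none passed by limma. Of the 4, 1 had an unadjusted p below 0.05, against 19.0% of all genes. That gene was Myo7a, the paralogue of Myo7b, named after its values were seen, which had a difference of 0.60 (limma adjusted p = 0.176). Its value was 1.04 for replicates 1 and 2 (adjusted p = 0.00507), against 0.31 for replicates 3 to 5 (adjusted p = 0.354). It passed over all arrays when blocked on the subsets (adjusted p = 0.0184), a split that was seen in these same data. Under 18 of the 21 alternatives Myo7a was not called.

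Markers of several cell types also differed between the groups, in both directions, and their part in these results was not tested. Of 9 measured enterocyte markers 4 rose and 0 fell, against 2.50% and 2.39% of all genes. Among those that rose was the fatty acid binding protein gene Fabp2 (1.17, limma adjusted p = 0.00131). Within replicates 1 and 2, 8 of the 9 rose (2.93% of all genes did), and within replicates 3 to 5, 3 did (1.84%). The log2 of the summed signal of this list ranged from 13.08 to 14.24 with pegtarazimod and from 12.33 to 13.13 with vehicle, and its highest arrays were pegtarazimod 1 and 2, as for the microvillus genes. Sis, Lct and Alpi stood on both the enterocyte list and the brush border enzyme and transporter list, so these lists are not independent. Of 4 measured stem cell markers 3 fell, including Lgr5 (-0.98, limma adjusted p = 0.00276), and the summed signal ranged from 9.97 to 10.88 with pegtarazimod and from 11.49 to 11.69 with vehicle. All 5 goblet cell markers rose, with a summed signal of 11.24 to 11.60 with pegtarazimod and 10.21 to 10.76 with vehicle. Of 5 Paneth cell markers 2 fell, and of 4 measured enteroendocrine markers 2 rose.

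Of 5 general epithelial markers none passed by limma over all arrays, with 2 at an unadjusted p below 0.05 (19.0% of all genes were). These were the keratin genes Krt20 and Krt18, named after their values were seen. Krt20, a keratin of differentiated cells, differed by 0.72 (limma adjusted p = 0.151) and rose within replicates 1 and 2 (1.18, adjusted p = 0.00423). Krt18 differed by -0.47 (limma adjusted p = 0.140) and fell within replicates 1 and 2 (-0.53, adjusted p = 0.0441). The summed signal ranged from 13.11 to 13.29 with pegtarazimod and from 13.11 to 13.30 with vehicle. None of 5 tuft cell, 4 mesenchymal, 3 leukocyte and 3 endothelial markers passed by limma either. Of them 2, 0, 1 and 1, in that order, had an unadjusted p below 0.05, against 19.0% of all genes. No marker is listed at 0 on these arrays. Under each array's lower quartile lay 1 of the 5 tuft cell genes (Trpm5), 1 of the 4 mesenchymal genes (Dcn) and 1 of the 3 endothelial genes (Kdr). The tuft cell gene Gfi1b and the mesenchymal gene Col1a1 lay above the median of every array.

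**Figure D4:**
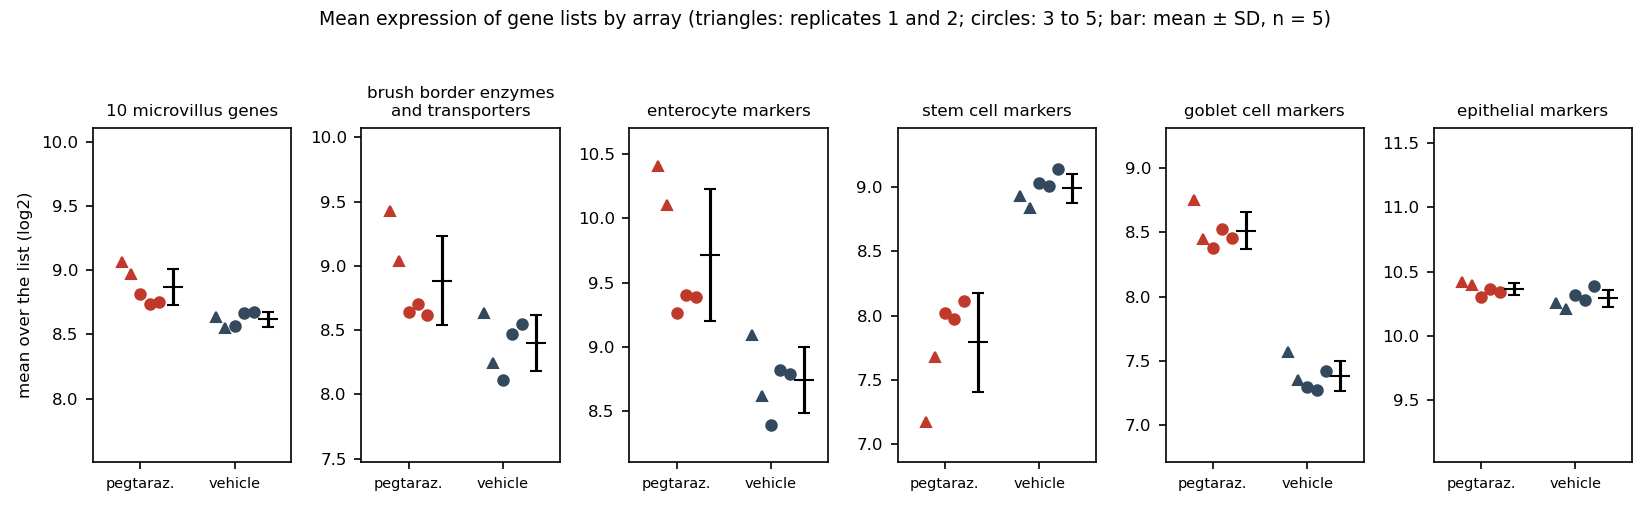
Mean expression over each gene list (vertical axes, log2, equal spans) on each array, with pegtarazimod on the left and vehicle on the right. Triangles are replicates 1 and 2, circles replicates 3 to 5, and bars the mean ± SD (n = 5). The microvillus, brush border enzyme and enterocyte means are highest in pegtarazimod 1 and 2, the stem cell mean is lowest there, and the epithelial mean overlaps between groups. The brush border enzyme and enterocyte lists share Sis, Lct and Alpi.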

How the data were processed

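RNA from 10 samples was analysed, 5 per group, with groups and replicate numbers taken from the labels. The authors deposited log2 values for each probe set, produced by RMA in oligo per the submitters' processing notes. RMA includes quantile normalisation between arrays and hides changes shared by most genes. The tool versions and the build are not stated in any source used here. Of 22203 probe sets 19572 had 1 symbol in the platform annotation, and for the 55 genes with several the probe set with the highest mean was used. RefSeq tables on GRCm38.p6 gave the promoters, of which the 50 bases after the start were left out.

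Differences are pegtarazimod minus vehicle, fitted over 19505 genes by lmFit and eBayes of limma 3.58.1 under R 4.3.3 without covariates and adjusted by Benjamini-Hochberg, with 0.05 as the threshold. The script was checked on simulated arrays. It recovered 39 of 67 genes changed by 0.5 (log2), 65 of 67 changed by 1 and 66 of 66 changed by 2. A further 13 genes were called falsely. A gene that did not pass may therefore still differ by a small amount, and changes below 0.5 were not simulated. The named genes were all members, the other brush border genes that passed and the 3 largest that did not, and up to 4 genes past the threshold of each other list. The members and lists were chosen with earlier results of these data known. Alternatives were other normalisations, filters on dim genes, variance models, blocks and leaving out each array. Plots used matplotlib 3.10.9 under Python 3.11.15.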

Additional observations from a re-analysis of the deposited data

Results flagged for a closer look

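Among 35 named genes, 70 gene and group combinations were screened with Dixon's criterion for 5 samples, and 5 held an array far from the others, where chance flags about 1 in 20. Of the microvillus genes, Myo1a in pegtarazimod 1 had a value of 8.17, while the other pegtarazimod arrays lay between 7.55 and 7.65. Without that array the Myo1a difference was 0.85 (limma adjusted p = 0.00209). Vil1 in vehicle 5 had a value of 9.998, with the other vehicle arrays between 9.87 and 9.91. Among marker genes, Muc2 in pegtarazimod 2 had 9.71 (nearest array 10.33), Fabp2 in vehicle 1 had 8.64 (nearest 8.33) and Clca1 in vehicle 4 had 5.81 (nearest 5.41).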

How the results depend on the processing

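The number of microvillus genes that passed was 3, between 2 and 3 on leaving out each array, 2 with quantile normalisation and 3 under the other alternatives over all arrays, with 4 in replicates 1 and 2 and 2 in replicates 3 to 5. Myo1a and Cdhr2 passed under all 21 alternatives, and Cdhr5 was the gene lost. Espn reversed, to -0.16 within replicates 3 to 5, and ranged from -0.083 to 0.23 on leaving out each array. No other named gene changed direction. The count of 38 other brush border genes that passed was 3, but 6 without the dimmest 50% of genes (28 tested), 6 with the subsets as a block and 1 within replicates 3 to 5. On leaving out an array it ranged from 0 to 4. It was 0 by limma without pegtarazimod 2, vehicle 3 or vehicle 4 and 1 without vehicle 5, with 7, 10, 7 and 10 genes at an unadjusted p below 0.05. Over all genes 954 passed, 1820 with the subsets as a block, and 437 (without vehicle 3) to 1245 (without pegtarazimod 4) on leaving out each array. The count was 552 without pegtarazimod 1, 522 without pegtarazimod 2, 498 without vehicle 4 and 562 without vehicle 5. With the replicate number as a block 1606 genes passed, and 3 microvillus genes and 4 other brush border genes, with Myo1c among those gained (adjusted p = 0.0125). Myo7a (0.0396) and Hnf4g (0.00105) also passed. Same-numbered arrays had correlated deviations from their group means (0.0993 to 0.310), but not above 0.1 for every pair, and not every array correlated best with its own number, so the labels' numbers were not taken as a pairing. The cause of these shifts was not tested. No background calls were used, so dim values limit what can be said of genes such as Trpm5.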
